A study of Homo sapiens with 18 samples.

Results

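The 9 genes described here build the MHC class I antigen presentation pathway: HLA-B, HLA-C, HLA-E, HLA-F, B2M, TAP1, TAP2, TAPBP and NLRC5. They were taken by symbol from the 60675 genes counted in each library, and all 9 were found and passed the filter on low counts in every comparison. RNA-seq was performed on 18 libraries of LNCaP and C4-2, which are established human prostate cancer cell lines. LNCaP responds to androgen, and C4-2 is a castration-resistant line derived from it (labelled LNCaP:C42). Each line had 3 groups of 3 libraries, all grown in hormone-depleted medium and transfected with 10 nM siRNA: non-targeting siRNA (siScr) with vehicle, siScr with 1 nM R1881 for 72 h, and a pool against KDM1A together with a pool against KDM7A, also with R1881. R1881 is a synthetic androgen. KDM1A and KDM7A are histone lysine demethylases, and the group depleted of both is called dual knockdown below. Knockdown without R1881 was not analysed here, and the siScr R1881 libraries served as reference for the knockdown and as the treated group for R1881. The 3 C4-2 vehicle libraries are named LNCaP:C42 in their titles and LNCaP in their cell line field. They were grouped by title, and every comparison that uses them rests on that choice. DMSO is given in the study's methods as vehicle for the sequenced siRNA samples, and ethanol as that for R1881 in culture.

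MHC class I molecules show fragments of the cell's own proteins to cytotoxic T cells. The proteasome cuts proteins into peptides, the transporter made of TAP1 and TAP2 moves them into the endoplasmic reticulum, and tapasin (TAPBP) holds an empty class I molecule beside the transporter until a peptide binds. The class I molecule itself is a heavy chain (HLA-B and HLA-C are classical, HLA-E and HLA-F are non-classical) paired with beta-2-microglobulin (B2M). NLRC5 is the transactivator of class I genes. It acts on promoters that carry the W/S, X and Y elements, and interferon acts on the same genes through transcription factors such as those of the IRF family. Loss of class I presentation is a known way for tumour cells to escape T cells.

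On the GRCh38 assembly used for counting, 7 members lie in the MHC region of chromosome 6: HLA-F (29722775 to 29738528, plus strand), HLA-E (30489467 to 30494205, plus), HLA-C (31268749 to 31272130, minus), HLA-B (31353872 to 31357188, minus), TAP2 (32821833 to 32838780, minus), TAP1 (32845209 to 32853978, minus) and TAPBP (33299694 to 33314387, minus). B2M lies on chromosome 15 (44711477 to 44718877, plus) and NLRC5 on chromosome 16 (56989485 to 57083531, plus). RefSeq promoters (GRCh38.p14, 250 bases before to 50 after the gene start) were held for 7 of the 9 genes in 8 entries, as TAP1 had 2 starts. HLA-E and NLRC5 had no entry. The stretches below lie upstream of the start of each gene in both annotations, read 5′ to 3′ on the gene's strand. They are shown because enough of the promoter lay upstream of both starts. For HLA-F, TAP1 and TAPBP the gene began further upstream in the annotation used for counting, and no such stretch was left. The stretches shown hold letters of elements through which interferon factors are known to act. In HLA-B, HLA-C and B2M they also hold letters of the X2 box. The R1881 response of each of these 4 genes is given further on. Capitals mark matches, on either strand, to GAANNGAAA or to GAAA followed by 2 bases of any kind and GAAA again (interferon regulatory factor letters), GGGNNTTCC (NF-kappaB letters) and TGACG (the core of the cyclic AMP response element in the X2 box).

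HLA-B, chr6:31357189-31357429, minus strand: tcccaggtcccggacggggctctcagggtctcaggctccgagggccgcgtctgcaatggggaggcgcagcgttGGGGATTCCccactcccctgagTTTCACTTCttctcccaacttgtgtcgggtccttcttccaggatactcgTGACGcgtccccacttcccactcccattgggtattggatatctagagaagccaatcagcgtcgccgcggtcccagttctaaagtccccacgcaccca
HLA-C, chr6:31272131-31272342, minus strand: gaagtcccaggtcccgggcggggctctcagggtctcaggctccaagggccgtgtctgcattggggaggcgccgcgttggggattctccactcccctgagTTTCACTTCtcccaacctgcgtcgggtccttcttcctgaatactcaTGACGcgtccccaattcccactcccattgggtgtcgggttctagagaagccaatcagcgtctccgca
B2M, chr15:44711267-44711476, plus strand: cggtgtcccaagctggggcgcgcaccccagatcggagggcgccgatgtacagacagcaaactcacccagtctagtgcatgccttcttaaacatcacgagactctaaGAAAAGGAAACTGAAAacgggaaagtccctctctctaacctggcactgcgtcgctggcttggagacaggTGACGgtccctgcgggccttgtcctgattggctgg
TAP2, chr6:32838781-32838989, minus strand: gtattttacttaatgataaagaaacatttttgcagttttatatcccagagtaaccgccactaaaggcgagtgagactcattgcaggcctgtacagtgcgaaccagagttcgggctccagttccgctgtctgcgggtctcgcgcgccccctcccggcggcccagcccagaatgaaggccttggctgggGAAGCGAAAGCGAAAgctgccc

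In the full promoter windows, GAANNGAAA matched in HLA-B, HLA-C and TAP2, against 7.66% of all 35116 promoters in the table. The pair of GAAA blocks 2 bases apart matched in HLA-F, TAP1, TAP2, TAPBP and B2M, against 3.57% of all promoters. Each of the 7 genes thus matched at least 1 of these 2 patterns, and only TAP2 matched both. The shares are per promoter entry, and the share of all promoters that match either pattern was not counted. For TAP1 the matches lay in the entry of the upstream start, and the other entry matched none of the 5 patterns searched. TGACG matched in HLA-B, HLA-C, TAP2 and B2M (24.6% of all promoters), CCAAT, the core of the Y box, matched in HLA-B, HLA-C, HLA-F, TAP1 and B2M (34.6%), and GGGNNTTCC matched in HLA-B, TAPBP and B2M (6.58%). The letters were chosen from known elements of class I promoters. A match is a run of letters and not a measured binding site, and no match says nothing about elements outside the window.

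Library totals ran from 3182604 to 20154243 counts, with a median of 18117641. The lowest, C4-2 vehicle replicate 3, was far below the second lowest at 10485096. Luminal prostate markers (KLK3, KRT8, KRT18, TMPRSS2 and FOLH1) were all detected, with a summed level of 1261 to 10010 CPM (counts scaled to a common library size) per library. The 5 leukocyte markers summed to at most 3.62 CPM. The knockdown was visible at both targets. KDM1A read 104, 108 and 113 CPM in LNCaP siScr R1881 and 48.5, 52.2 and 54.1 CPM in the dual knockdown, while in C4-2 it read 146, 140 and 141 against 14.8, 19.9 and 14.6 CPM. KDM7A went from 55.0 to 65.0 CPM down to 27.7 to 33.5 CPM in LNCaP and from 112 to 132 CPM down to 18.2 to 23.9 CPM in C4-2. Depletion was deeper in C4-2, with log2 changes of -3.12 for KDM1A and -2.51 for KDM7A against -1.05 and -0.93 in LNCaP (edgeR adjusted p of the difference between the lines 2.36e-09 and 6.06e-07). As bulk RNA was sequenced, fewer cells with a transcript and less transcript per cell cannot be told apart.

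Relative to the length of their annotated exons, B2M and HLA-C were the most abundant members and HLA-F and NLRC5 the least. In LNCaP with R1881, B2M reached 75.9 ± 8.95 CPM per kb (mean ± SD, n = 3), HLA-C 47.4 ± 0.556, TAPBP 18.5 ± 1.51, HLA-B 12.8 ± 0.669, HLA-E 11.4 ± 0.602, TAP1 6.79 ± 0.268, TAP2 2.31 ± 0.144, HLA-F 0.505 ± 0.0485 and NLRC5 0.399 ± 0.0297 CPM per kb. The libraries of neighbours in this order did not overlap. HLA-F and NLRC5, at 4 to 68 and 20 to 177 counts per library, rested on the fewest counts. With vehicle, HLA-C and not B2M led per kb in both lines. HLA-C stood at 40.9 ± 3.59 against 25.8 ± 1.06 CPM per kb for B2M in LNCaP. In C4-2 the values were 46.8 ± 4.82 and 31.6 ± 3.95 CPM per kb. This order rests on the annotated exon length, 6089 bases for B2M and 2507 for HLA-C. Before division by length, B2M was higher with vehicle too, at 157 against 102 CPM in LNCaP and 193 against 117 CPM in C4-2. The level of the ratio that follows depends on these lengths as well. B2M per kb divided by the summed heavy chains HLA-B, HLA-C, HLA-E and HLA-F per kb was 0.385, 0.461 and 0.382 in LNCaP vehicle and 0.952, 1.18 and 1.02 in LNCaP R1881. In C4-2 the same ratio was 0.404, 0.400 and 0.549 with vehicle and 1.14, 0.968 and 1.15 with R1881. In both lines every R1881 library lay above every vehicle library.

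**Figure D1:**
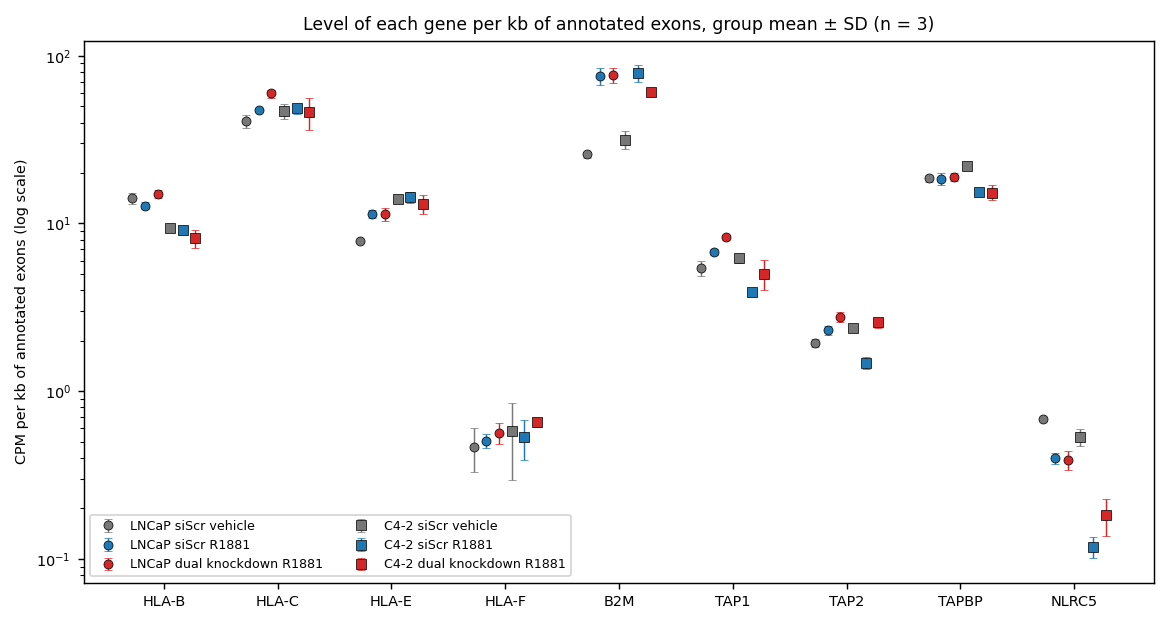
Level of each of the 9 genes in CPM per kb of annotated exons (log axis), as group mean ± SD of 3 libraries; circles are LNCaP, squares C4-2, grey vehicle, blue R1881 and red R1881 with dual knockdown. B2M and HLA-C lie highest, HLA-F and NLRC5 lowest, and NLRC5 in C4-2 drops from 0.535 with vehicle to 0.118 CPM per kb with R1881.

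Counting bounds what these levels mean. Reads were assigned to genes without a strand setting and reads over exons of more than 1 gene were not counted, so part of some members was lost. Such shared exons made up 32.3% of TAP2 (a same-strand gene, ENSG00000250264), 28.5% of HLA-F, 17.99% of HLA-B (an opposite-strand pseudogene) and 9.96% of TAP1 (PSMB8-AS1). Of the 100-base windows in the annotated transcripts, 30.33% of TAP2, 15.28% of HLA-F, 12.88% of HLA-B and 7.259% of TAP1 also occurred in a transcript of another gene, against 0.4908% of HLA-E, 0.1259% of HLA-C and none of B2M, TAPBP and NLRC5. HLA alleles differ from the reference sequence, so levels of HLA genes carry an added uncertainty that a comparison within 1 line shares between its groups, and that a comparison between lines may not.

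The response to R1881 was tested in each line by edgeR's quasi-likelihood F-test. P-values were adjusted after Benjamini and Hochberg over all genes tested, and a gene passed at an adjusted p under 0.05. In LNCaP, 4 members rose and 1 fell, against 46.6% of all 17162 genes that passed in either direction (23.5% upward, 23.2% downward). In C4-2, 1 member rose and 4 fell, against 32.8% of 16965 genes (17.1% upward, 15.7% downward). The share of members that passed, 5 of 9 in each line, was above but near the background in LNCaP and further above it in C4-2. These shares were not tested. Their median log2 change was 0.20 in LNCaP and -0.27 in C4-2, beside -0.04 and -0.02 over all genes tested. B2M rose and NLRC5 fell in both lines. TAP1 rose in LNCaP and fell in C4-2, TAP2 and TAPBP fell in C4-2, and HLA-E and HLA-C rose in LNCaP.

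B2M, the light chain shared by all class I molecules, showed the largest rise. It read 151, 164 and 157 CPM in LNCaP vehicle and 411, 519 and 456 CPM in LNCaP R1881. In C4-2 it read 186, 173 and 219 CPM with vehicle and 536, 430 and 475 CPM with R1881. Every R1881 library was above every vehicle library in both lines. The log2 change was 1.54 in LNCaP (SE 0.0812, edgeR adjusted p = 6.72e-11) and 1.32 in C4-2 (SE 0.100, adjusted p = 1.37e-07), that is, 2.90-fold and 2.50-fold. B2M was the sole member whose rise reached 2-fold, a size that 5.68% of all genes in LNCaP and 4.29% in C4-2 reached upward. Between the lines, the response of B2M differed by -0.22 (SE 0.138, adjusted p = 0.329).

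NLRC5, the class I transactivator, fell. In LNCaP it read 8.49, 8.21 and 8.62 CPM with vehicle and 5.25, 5.05 and 4.54 CPM with R1881. In C4-2 it read 5.95, 7.50 and 6.41 CPM with vehicle and 1.54, 1.63 and 1.22 CPM with R1881, where the last 3 values rest on 28, 29 and 20 counts. The groups did not overlap in either line. The log2 change was -0.79 in LNCaP (SE 0.148, edgeR adjusted p = 0.000339) and -2.18 in C4-2 (SE 0.239, adjusted p = 6.95e-06). In C4-2 this left 0.221 of the vehicle level, the only member that fell by 2-fold or more, as 4.78% of all genes did. The fall was deeper in C4-2 by -1.40 (SE 0.261, adjusted p = 0.000674).

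TAP1 and TAP2, the subunits of the peptide transporter, fell together in C4-2. TAP1 read 29.1, 29.8 and 26.2 CPM with vehicle and 17.8, 19.0 and 17.1 CPM with R1881, a log2 change of -0.67 (SE 0.126, edgeR adjusted p = 0.000886). TAP2 read 15.3, 14.4 and 15.7 CPM with vehicle and 9.02, 10.3 and 8.87 CPM with R1881, a log2 change of -0.68 (SE 0.116, adjusted p = 0.000403). Both were lower in every R1881 library than in any vehicle library. In LNCaP the same genes moved the other way. TAP1 read 24.2, 22.5 and 27.8 CPM with vehicle and 32.5, 30.2 and 30.5 CPM with R1881 and rose by 0.31 (SE 0.0862, adjusted p = 0.00735). TAP2 read 12.2, 13.2 and 12.0 CPM and then 15.8, 13.9 and 14.7 CPM, with no overlap, at 0.23 (SE 0.101, adjusted p = 0.067), which missed the threshold and passed with RLE factors (0.0483). The difference between the lines was -0.9998 for TAP1 (SE 0.158, adjusted p = 0.000121) and -0.93 for TAP2 (SE 0.145, adjusted p = 0.000103).

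TAPBP, the tapasin gene, fell in C4-2 from 109, 116 and 109 CPM to 80.1, 75.0 and 78.8 CPM, a log2 change of -0.52 (SE 0.0801, edgeR adjusted p = 0.000177). In LNCaP its groups overlapped, at 96.5, 89.3 and 96.7 CPM with vehicle and 102, 90.1 and 88.3 CPM with R1881. The lines differed in this response by -0.51 (SE 0.109, adjusted p = 0.00253). Of the 9 members, 5 differed between the lines in their response to R1881 and in all 5 the change in C4-2 was the lower, against 14.0% of 18684 genes that differed in either direction (7.95% with the lower change in C4-2, 6.05% with the higher).

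Among the heavy chains, HLA-E gave the clearest response. It read 23.5, 23.4 and 23.0 CPM in LNCaP vehicle and 31.8, 35.3 and 34.4 CPM in LNCaP R1881, without overlap, and rose by 0.52 (SE 0.0825, edgeR adjusted p = 6.33e-05). In C4-2 it stood at 40.7, 41.2 and 42.2 CPM with vehicle and 45.5, 43.4 and 39.1 CPM with R1881, a log2 change of 0.04 (adjusted p = 0.777), and the lines differed by -0.49 (SE 0.130, adjusted p = 0.0138). HLA-C rose in LNCaP from 105, 92.6 and 110 CPM to 119, 117 and 120 CPM, by 0.20 (SE 0.0699, adjusted p = 0.0277), a call that did not hold in 3 of 9 fits on 1 library fewer. HLA-B read 42.5, 39.1 and 46.0 CPM in LNCaP vehicle and 36.3, 39.1 and 40.2 CPM with R1881 (adjusted p = 0.109), and in C4-2 all 6 values lay between 26.6 and 29.7 CPM. HLA-F, at 1.17 to 3.52 CPM in these 4 groups, passed in neither line (log2 change 0.10, SE 0.259, in LNCaP and -0.27, SE 0.293, in C4-2).

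Without C4-2 vehicle replicate 3, the same 5 members passed in C4-2, with log2 changes of 1.42 for B2M, -2.19 for NLRC5, -0.71 for TAP1, -0.66 for TAP2 and -0.53 for TAPBP. Of the marker lists, the summed leukocyte markers stood in C4-2 at 2.91 to 3.62 CPM with vehicle and 1.01 to 2.08 CPM with R1881. Of these markers, PTPRC averaged 2.44 CPM with vehicle and 0.0799 CPM with R1881, LYZ averaged 0.154 and 0.945 CPM, CD68 averaged 0.296 and 0.258 CPM, and CD3E and CD14 each averaged at most 0.286 CPM. The 4 stroma and endothelium markers in C4-2 summed to 32.3 to 44.4 CPM with vehicle, 25.5 to 34.8 CPM with R1881 and 34.8 to 44.1 CPM after dual knockdown. COL1A1, which made up most of that sum, averaged 32.5, 20.4 and 30.7 CPM, with log2 changes of -0.70 for R1881 (edgeR adjusted p = 0.00207) and 0.58 for the knockdown (adjusted p = 0.00915), while VWF averaged 7.50, 9.18 and 8.66 CPM and COL1A2 and PECAM1 at most 0.0598 CPM. The part of these markers in the members' results was not tested.

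**Figure D2:**
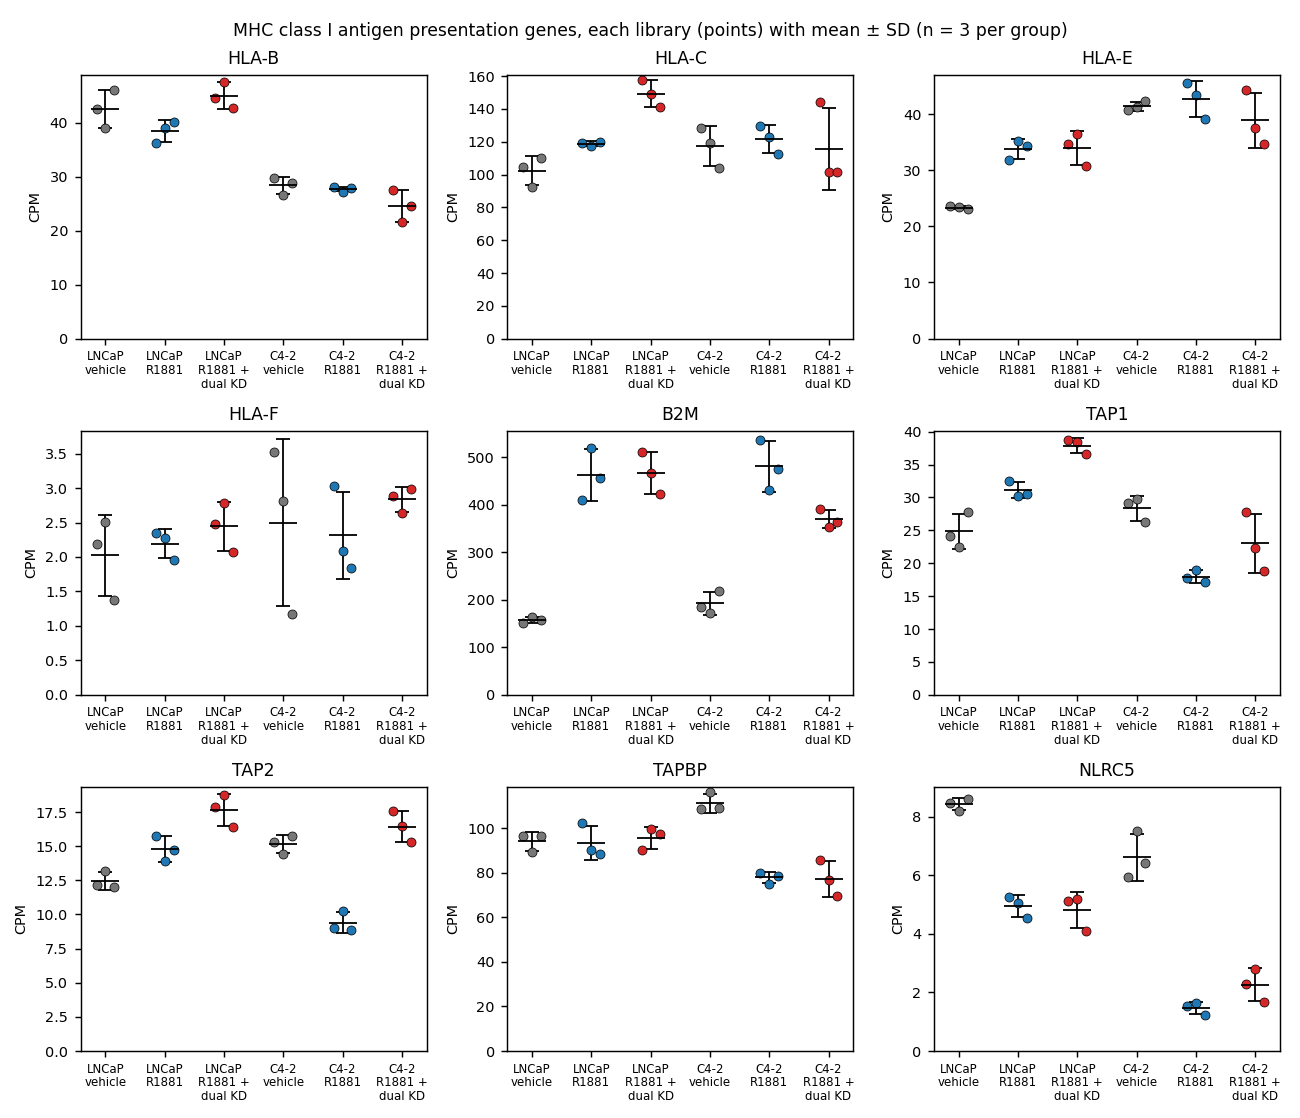
CPM of each of the 9 genes in each of the 18 libraries (points), with group mean ± SD (bars, n = 3); panels start at 0, and KD stands for knockdown. B2M rises with R1881 in both lines and NLRC5 falls in both. TAP1, TAP2 and TAPBP are lower in every C4-2 siScr R1881 library than in any C4-2 vehicle library.

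Genes of the wider pathway were read from 6 lists. The peptide supply list holds the immunoproteasome subunits PSMB8, PSMB9 and PSMB10, the proteasome activator subunits PSME1 and PSME2, and the peptidases ERAP1, ERAP2, NPEPPS and TPP2. In LNCaP, none of the 8 tested passed with R1881 (median log2 change 0.13), beside 46.6% of all genes in either direction. PSME1 and PSME2 were higher in every LNCaP R1881 library than in any LNCaP vehicle library and missed the threshold. In C4-2, 4 of 9 fell and none rose (median -0.39), beside 15.7% of all genes downward and 17.1% upward. ERAP2, a peptidase that trims peptides in the endoplasmic reticulum, read 6.52, 6.87 and 8.16 CPM (lowest, median and highest) with vehicle and 1.97, 2.20 and 3.06 CPM with R1881, and fell by 1.55 on the log2 scale (SE 0.241, edgeR adjusted p = 0.000188). PSMB10 fell by 1.08, ERAP1 by 0.76 and PSME1 by 0.35 on the same scale. The difference between the lines passed for ERAP2 (-1.87, adjusted p = 0.000514), ERAP1 (-0.90, adjusted p = 2.86e-05) and PSME1 (-0.50, adjusted p = 0.00115).

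The list of peptide loading holds 5 chaperone genes. In LNCaP, 4 of 5 rose (median log2 change 0.37, beside 23.5% of all genes upward), and in C4-2 2 of 5 rose (median 0.12, beside 17.1%). PDIA3, the disulphide isomerase of the loading complex, rose by 0.52 in LNCaP (edgeR adjusted p = 1.42e-06) and 0.45 in C4-2 (adjusted p = 0.0013). CANX, the calnexin that folds new heavy chains, rose by 0.46 and 0.30. CALR, which encodes calreticulin, rose by 0.37 in LNCaP (adjusted p = 2.01e-05), and its response differed between the lines by -0.26 (adjusted p = 0.024, lost in 4 of 18 fits without 1 library). UGGT1, a folding sensor, rose by 0.34 in LNCaP. TAPBPL, the tapasin relative, passed in neither line.

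Among 15 regulators of class I transcription, 2 rose and 4 fell in LNCaP (median log2 change -0.09), and 1 rose and 2 fell in C4-2 (median -0.04). Of all genes tested, 23.5% rose and 23.2% fell in LNCaP, and 17.1% rose and 15.7% fell in C4-2. IRF1, an interferon-induced activator of class I genes, read 16.9, 17.2 and 18.4 CPM in C4-2 vehicle and 2.47, 2.59 and 2.63 CPM with R1881. It fell by 2.77 on the log2 scale (SE 0.166, edgeR adjusted p = 1.08e-08). In LNCaP it stood at 4.55, 5.00 and 5.08 CPM with vehicle and 2.46, 3.45 and 4.10 CPM with R1881, fell by 0.57 (adjusted p = 0.0236, lost in 3 of 9 fits without 1 library), and differed between the lines by -2.22 (SE 0.251, adjusted p = 1.83e-06). NFKB1, an NF-kappaB subunit, fell in both lines, by 1.05 in LNCaP (adjusted p = 9.17e-10) and by 0.89 in C4-2 (adjusted p = 5.14e-06). RFXANK and NFYC fell in LNCaP without overlap, by 0.33 (edgeR adjusted p = 0.0026) and 0.24 (adjusted p = 0.012). The NFYC call was lost in 2 of 9 fits without 1 library (adjusted p up to 0.0717), and the RFXANK call in none. IRF2 and ATF1 rose in LNCaP, by 0.50 and 0.20, and CREB1 rose in C4-2 by 0.29. Without 1 library, the ATF1 call was lost in 4 of 9 fits (adjusted p up to 0.173) and the CREB1 call in 3 of 9 (up to 0.0708). RFX5, RFXAP, CIITA, RELA, STAT2, IRF9, NFYA and NFYB passed in neither line.

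In the list of interferon receptors and their kinases, 2 of 7 rose and 3 fell in LNCaP (median log2 change 0.03), and 3 rose and 1 fell in C4-2 (median 0.13). The shares of all genes were 23.5% upward and 23.2% downward in LNCaP, and 17.1% and 15.7% in C4-2. IFNGR1, a chain of the interferon gamma receptor, rose in both lines, by 0.51 in LNCaP (edgeR adjusted p = 4.59e-05) and by 0.79 in C4-2 (adjusted p = 2.96e-05). IFNAR1, a chain of the type I interferon receptor, rose by 0.68 in LNCaP and by 0.37 in C4-2. TYK2 fell in both, while JAK1 fell in LNCaP (-0.32) and rose in C4-2 (0.51), and JAK2 fell in LNCaP (-0.64). In C4-2 the JAK1 and TYK2 calls were each lost in 3 of 9 fits without 1 library (adjusted p up to 0.11 and 0.0789). For both genes the LNCaP vehicle and R1881 libraries overlapped. The lines differed for JAK1 by 0.81 (adjusted p = 0.00998) and for JAK2 by 0.76 (adjusted p = 0.000935).

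AZGP1 encodes a soluble class I-like protein secreted by the prostate. It rose from 11.0, 11.1 and 12.4 CPM to 103, 111 and 114 CPM in LNCaP and from 7.04, 7.56 and 9.03 CPM to 85.8, 87.1 and 90.2 CPM in C4-2, by 3.23 (edgeR adjusted p = 3.41e-14) and 3.53 (adjusted p = 4.44e-12) on the log2 scale. In all, 2 of 4 other class I-like genes tested rose in LNCaP and 1 of 6 in C4-2 and none fell, with medians of 0.25 and -0.10. Of all genes tested, 23.5% rose and 23.2% fell in LNCaP, and 17.1% rose and 15.7% fell in C4-2. The second in LNCaP was MICA, a stress ligand for NKG2D, at 0.66 (adjusted p = 0.000479). Of 7 MHC class II genes, which present extracellular peptides, 3 passed the filter. HLA-DMA, a peptide exchange factor of that pathway, rose by 2.88 in LNCaP (adjusted p = 7.05e-13) and by 1.06 in C4-2 (adjusted p = 0.00131), and HLA-DMB, its partner, by 1.26 in LNCaP. HLA-DRA, a chain of the class II molecule, and CD74, its invariant chain, a chaperone, averaged at most 0.204 and 0.16 CPM in any group.

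**Figure D3:**
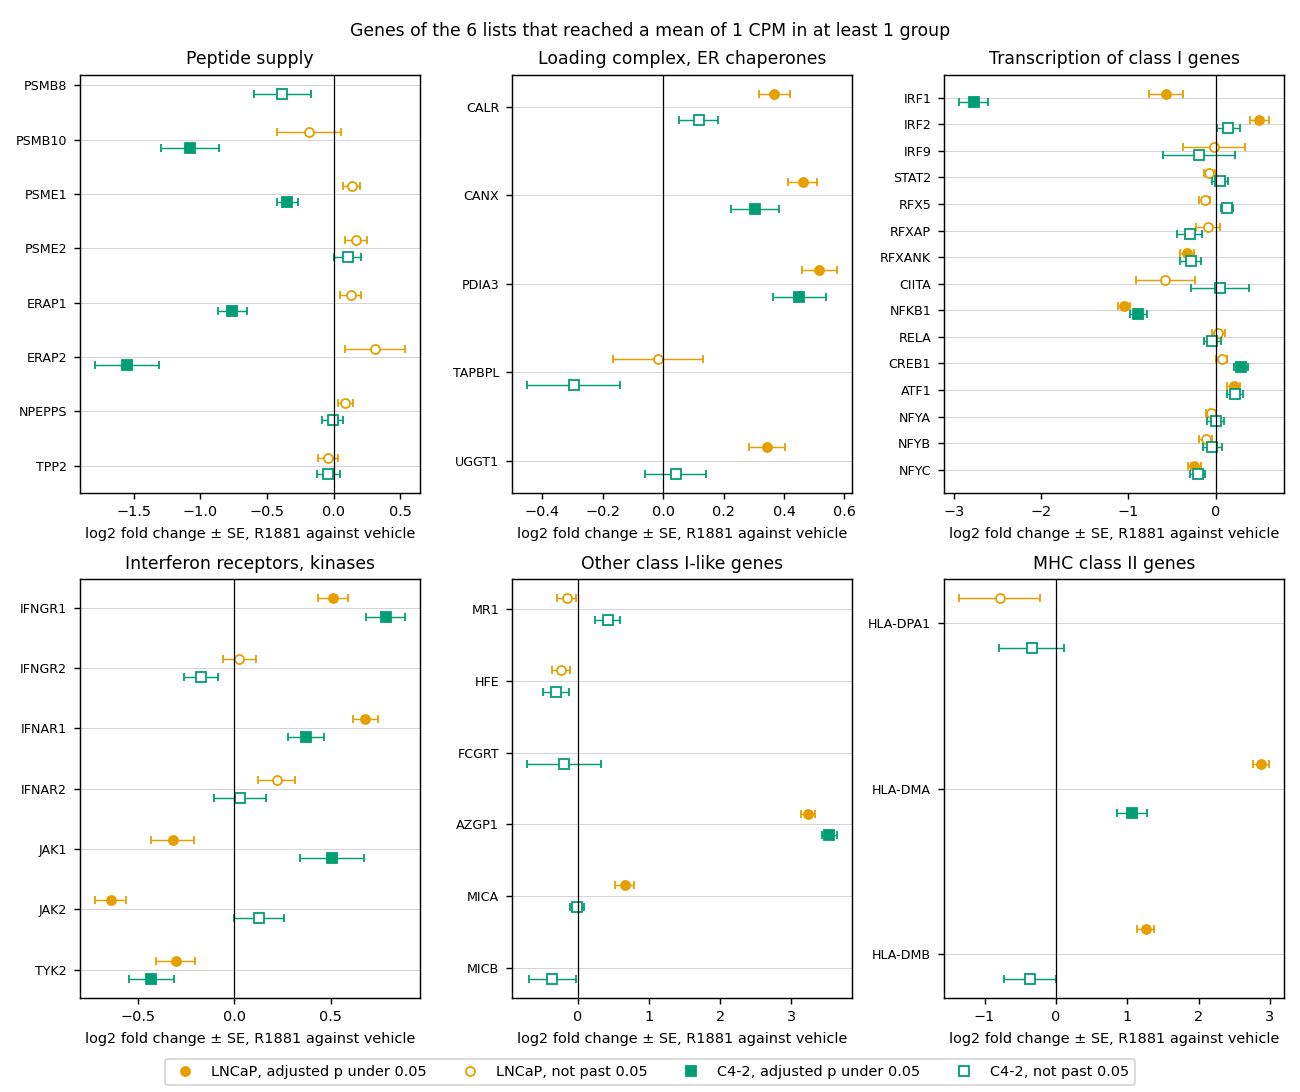
Log2 fold change ± SE with R1881 for genes of the 6 lists that reached a mean of 1 CPM in a group, in LNCaP (orange circles) and C4-2 (green squares); filled symbols passed an adjusted p under 0.05, and missing symbols were not tested in that line. IRF1 and ERAP2 fall furthest in C4-2, by 2.77 and 1.55, and AZGP1 rises by more than 3 in both lines.

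The question of the knockdown was whether depletion of KDM1A and KDM7A alters the R1881-treated state. In LNCaP it raised 3 members and lowered none, against 14.2% of 17162 genes that passed in either direction (8.27% upward, 5.89% downward). HLA-C rose from 119, 117 and 120 CPM to 158, 149 and 141 CPM, by 0.35 (SE 0.0691, edgeR adjusted p = 0.00555), and its groups did not overlap. TAP1 rose from 32.5, 30.2 and 30.5 CPM to 38.7, 38.4 and 36.6 CPM, by 0.30 (SE 0.0836, adjusted p = 0.025). HLA-B rose from 36.3, 39.1 and 40.2 CPM to 44.7, 47.6 and 42.7 CPM, by 0.24 (SE 0.0789, adjusted p = 0.0492). These changes are small: none reached 2-fold, as 0.157% of all genes did upward and 0.128% downward.

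The HLA-B call was at the edge of the threshold. It was lost with RLE factors (adjusted p = 0.0659), with DESeq2 (0.0709), with no filter on low counts (0.0572) and in 7 of the 9 fits without 1 library, and TAP1 was lost in 4 of those 9. The count of members that rose was 1 without LNCaP siScr R1881 replicate 2, LNCaP siScr R1881 replicate 3, LNCaP dual knockdown replicate 1 or LNCaP dual knockdown replicate 2. HLA-C was the member that passed in all 9. NLRC5, at 5.13, 5.19 and 4.11 CPM, and B2M, at 512, 466 and 422 CPM, overlapped their siScr values, and TAP2 missed the threshold at 0.27 (adjusted p = 0.0723).

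In C4-2, where the depletion was deeper, the knockdown raised 1 member and lowered 1, against 23.5% of 16965 genes that passed in either direction (12.7% upward, 10.8% downward). TAP2 rose from 9.02, 10.3 and 8.87 CPM to 17.5, 16.5 and 15.3 CPM, without overlap, by 0.80 (SE 0.111, edgeR adjusted p = 0.000165), which placed it near its vehicle level of 14.4 to 15.7 CPM. B2M fell from 536, 430 and 475 CPM to 391, 354 and 363 CPM, without overlap, by 0.38 (SE 0.0974, adjusted p = 0.0107), and stayed above its vehicle level of 173 to 219 CPM. Without C4-2 siScr R1881 replicate 1 the B2M call was lost (adjusted p = 0.0704), and the count of members that passed was 1. Without C4-2 dual knockdown replicate 3 it was 4.

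TAP1 and NLRC5 moved upward in C4-2 and missed the threshold. TAP1 read 27.8, 22.4 and 18.8 CPM after knockdown against 17.8, 19.0 and 17.1 CPM, at 0.35 (edgeR adjusted p = 0.0538). With no filter on low counts it passed (adjusted p = 0.0361). NLRC5 read 2.30, 2.80 and 1.68 CPM against 1.54, 1.63 and 1.22 CPM, at 0.62 (SE 0.245, adjusted p = 0.0832). TAPBP, at 85.5, 76.7 and 69.7 CPM, and HLA-E, at 44.3, 37.6 and 34.7 CPM, overlapped their siScr libraries, as did HLA-C, whose replicate 1 (144 CPM) lay above the other two (both 101 CPM). HLA-B read 27.6, 21.6 and 24.5 CPM (adjusted p = 0.222), and HLA-F did not pass in either line.

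Of the 9 members, 2 differed between the lines in their knockdown response, 1 with the higher and 1 with the lower change in C4-2, against 10.9% of 18684 genes (6.97% with the higher change in C4-2, 3.88% with the lower). TAP2 rose more in C4-2, by 0.55 (SE 0.140, edgeR adjusted p = 0.0132), and passed in all 18 fits without 1 library but not with no filter on low counts (0.0656). HLA-B differed by -0.40 (SE 0.125, adjusted p = 0.0442), and this call was lost in 12 of those 18 fits and with no filter (0.0751). B2M missed the threshold at -0.39 (SE 0.136, adjusted p = 0.0673) and passed with DESeq2 (0.048), with no filter (0.0105), with only the groups compared (0.0327) and in 5 of the 18 fits. HLA-C missed it at -0.40 (SE 0.152, adjusted p = 0.0969) and passed with no filter (0.014) and with a replicate block (0.0417).

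**Figure D4:**
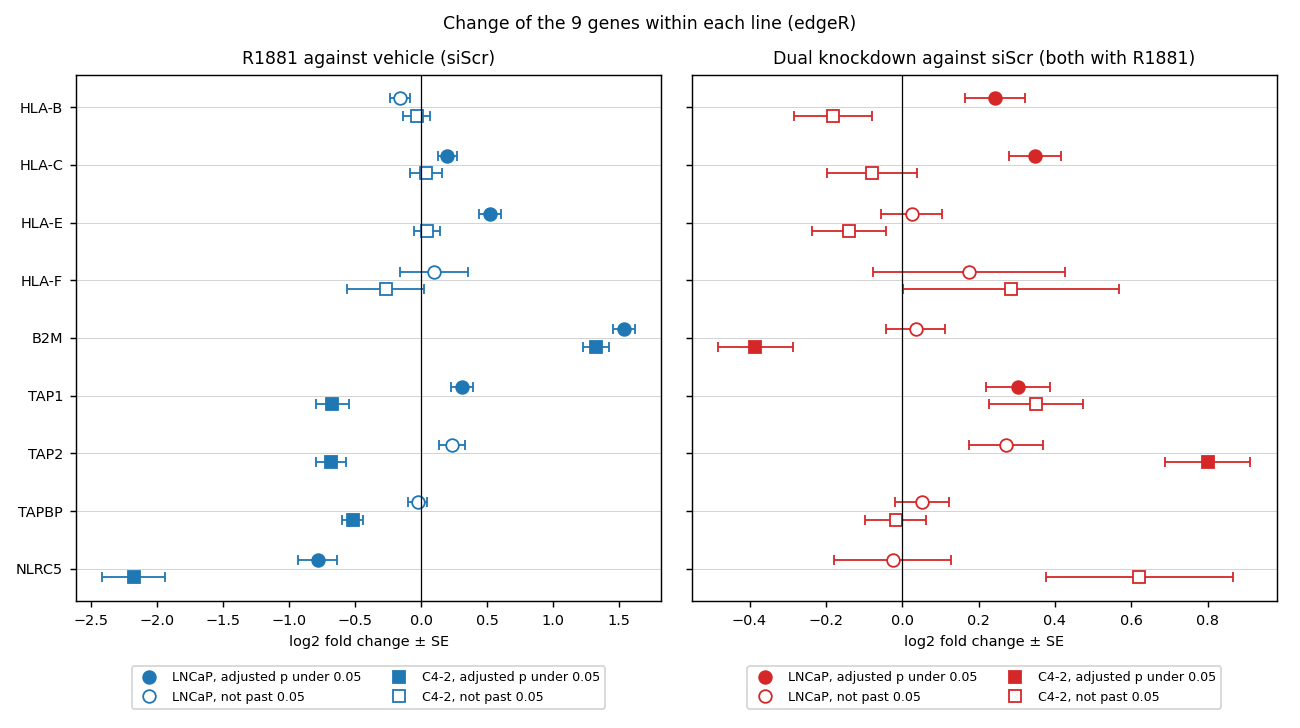
Log2 fold change ± SE (edgeR) of the 9 genes for R1881 (left) and for the dual knockdown on R1881 (right), in LNCaP (circles) and C4-2 (squares); filled symbols passed an adjusted p under 0.05. The x axes differ in scale: R1881 changes run from -2.18 to 1.54 and knockdown changes from -0.38 to 0.80.

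The lists were then read under the knockdown. In C4-2, 3 of 9 peptide supply genes rose and none fell (median log2 change 0.41), while none of 8 passed in LNCaP (median -0.05). Of all genes tested, 12.7% rose and 10.8% fell in C4-2, and 8.27% rose and 5.89% fell in LNCaP. PSMB8, an immunoproteasome subunit, rose by 1.10 in C4-2 (3.18, 3.60 and 5.00 CPM to 6.79, 8.56 and 10.1 CPM, adjusted p = 0.00128). ERAP1 rose by 0.96 (adjusted p = 2.19e-05) and ERAP2 by 1.20 (adjusted p = 0.0021), and the response differed between the lines for ERAP1 by 0.98 (adjusted p = 2.35e-05) and for ERAP2 by 1.46 (adjusted p = 0.00635). Of the 5 loading chaperones none passed in LNCaP (median -0.04), and UGGT1 alone rose in C4-2 by 0.42 (median 0.06).

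Of 15 regulators, 3 rose in C4-2 and none fell (median -0.04). The shares of all genes were 12.7% upward and 10.8% downward in C4-2, and 8.27% and 5.89% in LNCaP. IRF1 rose from 2.47, 2.59 and 2.63 CPM to 3.05, 4.12 and 4.60 CPM, by 0.61 (edgeR adjusted p = 0.0189, lost in 5 of 9 fits without 1 library). This stayed below the vehicle level of 16.9 to 18.4 CPM. RFX5, which binds the X box beside NLRC5, rose by 0.37 (adjusted p = 0.0013) and NFYC by 0.34. In LNCaP, RFXANK rose by 0.31 and CREB1 fell by 0.22 (median -0.07), each lost in 4 of 9 fits without 1 library (adjusted p up to 0.0809 and 0.171). JAK2 fell in both lines (-0.27 and -0.44), and IFNGR2 fell in C4-2 (-0.40), so that 1 of 7 receptor and kinase genes fell in LNCaP and 2 in C4-2, with medians of -0.07 and -0.0027. The JAK2 call was lost in 5 of 9 such fits in LNCaP and in 2 of 9 in C4-2.

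In C4-2, 3 of 6 other class I-like genes rose and 2 fell (median 0.30), beside 12.7% of all genes upward and 10.8% downward. MICB, a ligand of the NK cell receptor NKG2D, rose by 1.73 to 3.45 ± 0.580 CPM (edgeR adjusted p = 0.000641). MR1, which presents vitamin metabolites to MAIT cells, rose by 0.72, and FCGRT, the neonatal Fc receptor, rose by 1.85 from a low level. AZGP1 fell by 0.72 and MICA by 0.45. HLA-DMA rose by 1.16 (adjusted p = 0.000352) and HLA-DMB by 2.35 (adjusted p = 0.000121), and both differed between the lines, by 1.12 and 2.27. None of 4 class I-like and none of 3 class II genes tested passed in LNCaP (medians 0.05 and 0.06), beside 14.2% of all genes in either direction.

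The 2 lines also differed at rest. With vehicle, 4 members were higher in C4-2 and 1 was lower, against 58.9% of 18684 genes that differed in either direction (29.4% higher in C4-2, 29.5% lower). HLA-E was higher by 0.82 (40.7 to 42.2 CPM against 23.0 to 23.5 CPM, SE 0.0946, edgeR adjusted p = 1.67e-07), and HLA-B was lower by 0.59 on the log2 scale (26.6 to 29.7 CPM against 39.1 to 46.0 CPM, adjusted p = 1.26e-05). TAPBP was higher by 0.24 (adjusted p = 0.00981), B2M by 0.28 (adjusted p = 0.0197) and TAP2 by 0.27 (adjusted p = 0.028). Without C4-2 vehicle replicate 3, the B2M and TAP2 calls were lost (adjusted p = 0.097 and 0.0541) and HLA-C and HLA-F passed (0.0351 and 0.0368). The count was 3 without LNCaP vehicle replicate 1. TAP2 also missed with DESeq2 (0.0527), with no filter on low counts (0.136) and with only the groups compared (0.0784).

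With R1881, 1 member was higher in C4-2 and 5 were lower, against 58.3% of 18684 genes (28.6% higher in C4-2, 29.7% lower). NLRC5 was lower by 1.75 on the log2 scale (1.22 to 1.63 CPM against 4.54 to 5.25 CPM, edgeR adjusted p = 1.12e-07), TAP1 by 0.79, TAP2 by 0.66, HLA-B by 0.47 and TAPBP by 0.26. HLA-E stayed higher, by 0.34 (adjusted p = 0.00281). The estimates for TAP2 and TAPBP thus turned from higher in C4-2 with vehicle to lower with R1881. Their calls with vehicle were the less firm ones. Without 1 library, the vehicle call was lost in 4 of 18 fits for TAP2 and in 2 of 18 for TAPBP (edgeR adjusted p up to 0.085 and 0.0534). In none of the 18 fits without 1 library did the count of 6 members change. B2M, HLA-C and HLA-F did not pass.

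In the peptide supply list, PSMB8 was 3.33 higher in C4-2 with vehicle and 3.48 higher with R1881 on the log2 scale, at 4.95 ± 0.837 and 3.93 ± 0.955 CPM against 0.483 ± 0.26 and 0.358 ± 0.134 CPM in LNCaP. IRF1 was 1.85 higher in C4-2 with vehicle (edgeR adjusted p = 4.8e-09) and did not pass with R1881. STAT2 was lower in C4-2 in both states, by 0.89 and 0.78.

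NLRC5 had the widest range of group means among the members, 2.44 on the log2 scale, from LNCaP vehicle down to C4-2 R1881. Over the 6 group means, centred on each gene's own mean, the 5 genes of 14949 with the smallest root mean square difference from NLRC5 were GUSBP2 (0.198), CNGA1 (0.205), APBB2 (0.228), PRKD1 (0.235) and ENSG00000261685 (0.236). None is a member or list gene. The ranking was taken over 6 points and carries no test.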

How the data were processed

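RNA-seq counts of 18 libraries were analysed, 3 for each of 6 groups. Poly(A) RNA was sequenced as paired ends. According to the labels and the study's methods, reads were trimmed with Trim Galore and aligned with STAR to GRCh38. Per the file headers, the authors counted read pairs per gene with featureCounts 1.5.0-p1 on Ensembl release 83, with no option for strand, multi-mapping reads or overlapping genes. The deposited values are raw counts per gene, beside an exon length in bases, a column of other kind taken from the deposited files.

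From these counts, edgeR 4.0.16 in R 4.3.3 gave TMM factors, quasi-likelihood F-tests and Benjamini-Hochberg adjusted p-values after filterByExpr (minimum count 10, minimum total 15). Each line's 9 libraries were fitted for R1881 and knockdown, and all 18 for line contrasts and interactions. SE is the log2 change divided by the square root of F. CPM used TMM factors over all 18 libraries. CPM per kb used the deposited exon length. The fits were also run on simulated data, with the same spread for all genes and changes of 2-fold or more in well-counted genes. Smaller changes, and changes in genes with few counts, were not simulated, and no result here rests on that run. DESeq2 1.42.0, RLE factors, other filters, fewer libraries and a block were alternatives. Depth of 3182604 to 20154243 counts limits low genes most. The labels do not state whether libraries came from separate cultures, so p-values measure the spread between these libraries, which may be technical.

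All 9 members were named in every comparison. From the 6 lists, genes with an adjusted p under 0.05, a mean of at least 1 CPM and non-overlapping libraries were named first, largest change first. KDM1A and KDM7A served as the knockdown check, and the 5 genes nearest to the member with the widest range were named. Members and lists were chosen with earlier results of these data known. Some genes of the lists are not reported here and were left out of the lists' counts and sums. Symbols were matched for 57055 of 60675 identifiers. Coordinates are those of the deposited files.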

Additional observations from a re-analysis of the deposited data

Results flagged for a closer look

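Of the 9 genes, 5 responded differently to R1881 in C4-2 and in LNCaP, by an interaction term in the fit of all 18 libraries (edgeR quasi-likelihood F-test). The change in C4-2 minus the change in LNCaP, on the log2 scale, was -1.40 for NLRC5 (SE 0.261, adjusted p = 0.000674), -0.9998 for TAP1 (SE 0.158, adjusted p = 0.000121), -0.93 for TAP2 (SE 0.145, adjusted p = 0.000103), -0.51 for TAPBP (SE 0.109, adjusted p = 0.00253) and -0.49 for HLA-E (SE 0.130, adjusted p = 0.0138). All 5 passed in each of the 18 fits that left out 1 library. In the knockdown response, TAP2 differed by 0.55 (SE 0.140, adjusted p = 0.0132, and 0.0656 with no filter on low counts) and HLA-B by -0.40 (SE 0.125, adjusted p = 0.0442). With 3 libraries per group, single libraries were not tested for lying apart.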

How the results depend on the processing

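With other scaling factors (RLE), DESeq2, 2 other filters, a replicate block or only the groups compared, the number of members that passed stayed within 1.5 times in each of the 8 comparisons, and 413 member values kept their direction and side of the threshold. A further 9 newly passed, 9 no longer passed, and 1 turned in direction: TAPBP with R1881 in LNCaP was 0.0099 with no filter on low counts, against -0.02. HLA-B under knockdown in LNCaP no longer passed with RLE factors (adjusted p = 0.0659), DESeq2 (0.0709), no filter (0.0572) or the block (0.0541). The cause was not tested.

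The labels do not say what a replicate number stands for. Deviations of same-numbered libraries correlated from -0.585 to 0.486 over the comparisons, with low or negative values in each, and no pairing was assumed. With the replicate block, 5 members passed for R1881 in each line, 2 and 3 for the knockdown in LNCaP and C4-2, 5 and 6 between the lines with vehicle and R1881, and 5 and 3 for the differences between lines. TAP1 under knockdown in C4-2 (adjusted p = 0.0343) and HLA-C in the knockdown difference (0.0417) then passed.

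With 1 library fewer in each fit in turn, the count of members that passed ran from 1 to 3 for the knockdown in LNCaP, 1 to 4 in C4-2, 3 to 6 between the lines with vehicle and 1 to 4 for the knockdown difference, against 3, 2, 5 and 2, and from 4 to 6 for R1881 in LNCaP. It stayed at 5 for R1881 in C4-2 and for the R1881 difference and at 6 between the lines with R1881. The values that turned in direction were of genes that had not passed. With R1881 in LNCaP, HLA-F ran from -0.12 to 0.33 and TAPBP from -0.095 to 0.031, and in C4-2 HLA-B from -0.090 to 0.0058 and HLA-C from -0.025 to 0.10. Under knockdown in LNCaP, HLA-E ran from -0.032 to 0.092, B2M from -0.046 to 0.12 and NLRC5 from -0.087 to 0.079, and in C4-2 HLA-C from -0.26 to 0.0056 and TAPBP from -0.090 to 0.045. Between the lines with R1881, HLA-C ran from -0.012 to 0.083, HLA-F from -0.16 to 0.22 and B2M from -0.026 to 0.15. In the knockdown difference, HLA-F ran from -0.0046 to 0.37, TAP1 from -0.075 to 0.19 and TAPBP from -0.12 to 0.016.

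Depth limited HLA-F (4 to 68 counts) and NLRC5 (20 to 177 counts) most.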
